A study of Mus musculus with 6 samples.

Results

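The genes described here are 10 transcription factors and regulators that act downstream of the T cell receptor: the nuclear receptor genes Nr4a1, Nr4a2 and Nr4a3, the zinc finger factor genes Egr1, Egr2 and Egr3, the NFAT genes Nfatc1 and Nfatc2, the calcineurin inhibitor gene Rcan1 and the interferon regulatory factor gene Irf4. They were chosen by name, and all 10 were among the 19937 genes measured, each by 1 probe set. RNA came from spleen CD4+ T cells of B6 mice that had been activated as naive cells with anti-CD3 and anti-CD28 for 2 days and rested overnight. The cells were then coated with antibody for 20 min and the antibodies were cross-linked with goat anti-hamster antibody for 8 h, either anti-CD3 together with anti-ICOS (2 arrays) or anti-CD3 alone (4 arrays). Both groups therefore shared the earlier activation and the anti-CD3, and no unstimulated cells were analysed here. The labels call the arrays biological replicates without naming separate animals or cultures, so p-values cover only array-to-array spread, and the number of arrays limits the precision. Values are log2(intensity + 16), and each difference is the mean with anti-ICOS minus the mean without it.

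When the T cell receptor is engaged, calcium entry activates the phosphatase calcineurin, which removes phosphate from NFAT proteins and lets them enter the nucleus, while the Ras and MAP kinase branch acts through serum response factor on the EGR genes. The NR4A receptors and EGR factors are immediate early products whose transcripts usually rise and decline quickly after stimulation, and NFAT without its AP-1 partner, NR4A and EGR2 or EGR3 are each known for restraining T cells that receive chronic or unbalanced signals. RCAN1 binds and inhibits calcineurin as feedback, and IRF4, which works with BATF and AP-1, is known to follow the strength of the receptor signal. ICOS is a costimulatory receptor of the CD28 family that acts mainly through phosphoinositide 3-kinase.

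Of the anti-CD3 arrays, replicate 4 stood apart in many genes and lay near the anti-ICOS arrays, so the genes described are also compared without it and against it alone. The fit against it alone has 1 array in that arm, so its SE and p take their spread from the anti-ICOS arrays and anti-CD3 replicates 1 to 3 and assume that replicate 4 varies like them. Whether this array is correctly labelled was not tested. It is kept in the group its title gives, and every value that uses it or leaves it out depends on that label. Among T cell markers Cd4 read 11.95 and 12.00 with anti-ICOS, against 12.45, 12.42, 12.32 and 12.05 in anti-CD3 replicates 1 to 4. Cd4 had the largest difference of the 9 measured, -0.33, while Cd3d, Cd3g and Cd2 differed by -0.03, -0.01 and 0.05. In 5 of the 9 both anti-ICOS arrays were below all 4 anti-CD3 arrays. The summed intensity of 9 of 10 listed T cell markers was 28688 and 30095 with anti-ICOS, against 32709 to 34694 in anti-CD3 replicates 1 to 3 and 30716 in replicate 4. The B cell marker Cd79b was also bright on every array, at 12.58 and 12.70 with anti-ICOS and 12.44, 12.52, 12.31 and 12.66 with anti-CD3, although the label is CD4+ T cells. Cd79a was about as bright, at 12.10 and 12.25 with anti-ICOS and 12.29, 12.35, 12.18 and 12.23 with anti-CD3. Cd79b, Ms4a1, Pax5 and Blnk differed by 0.16, 0.19, 0.24 and 0.27, and Cd79a by -0.09. The sums of 5 of 6 B cell markers were 15873 and 17474 with anti-ICOS, against 13960 to 15818 in replicates 1 to 3 and 17269 in replicate 4. Of CD8 T cell markers (2 of 2) the sums were 4352 and 4509, against 3859 to 4128 and 4704. Monocyte and macrophage markers (7 of 8) summed to 1231 and 1878, against 730 to 759 and 1208, NK cell markers (6 of 6) to 1101 and 1153, against 636 to 751 and 1102, and dendritic cell markers (9 of 9) to 19332 and 21130, against 18746 to 20489 and 17945. Neutrophil markers (6 of 6) summed to 491 and 1309, against 350 to 404 and 328, and mast cell and basophil markers (6 of 6) to 464 and 635, against 306 to 320 and 309. Replicate 4 was above replicates 1 to 3 for the NK cell markers Eomes, Klrk1 and Klra8, and not for Ncr1, Klrb1c and Gzma. Among monocyte and macrophage markers it was above them for Lyz2, Adgre1 and Itgam, and not for Csf1r, Cd68, Cd14 and Fcgr1. Eomes and Klrk1, the brightest NK cell markers, had intensities of 556.7 and 410.0 in replicate 4, against 560.0 and 375.8 in anti-ICOS replicate 1. Ncr1 had 33.7 in replicate 4, against 64.7 and 77.2 with anti-ICOS. Flt3, a growth factor receptor of dendritic cells and their precursors, averaged 8.16 ± 0.15 with anti-ICOS (SD, n = 2) and 6.90 ± 0.066 with anti-CD3 (SD, n = 4), and was the only one of these markers to pass (limma adjusted p = 0.00321). In 4 of the 9 dendritic cell markers, Flt3, Itgax, Siglech and Zbtb46, both anti-ICOS arrays were above all 4 anti-CD3 arrays, with differences of 0.87 for Itgax, 0.53 for Siglech and 0.34 for Zbtb46 (limma adjusted p = 0.411, 0.0746 and 0.283). Clec9a and Xcr1 had intensities near the low end of the array, from 28.4 to 45.2, and neither passed the test. Clec9a differed by 0.08 and Xcr1 by -0.19, with both anti-ICOS arrays below all 4 anti-CD3 arrays for Xcr1. H2-Aa, H2-Ab1 and Cd74 made up most of the dendritic cell sum and differed by 0.11, 0.11 and -0.07, none past the test. Several of the 10 genes, above all Irf4, Nfatc1 and the EGR genes, are also active in B cells and myeloid cells, and in bulk RNA a change in the share of such cells and a change in RNA per cell cannot be told apart. The part of these markers in the results was not tested.

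With anti-ICOS, 0 of the 10 genes passed the test over all genes (limma, Benjamini-Hochberg adjusted p between 0.226 and 0.731), where 0.271% of all genes were called higher. All 10 had a positive difference, with a median of 0.22, against a median of -0.03 and 42.3% positive differences over all 19937 genes. Genes as bright as these leaned the same way: among the 6736 genes with a mean between 7.85 and 10.46, 69.0% had a positive difference and the median was 0.10. Quantile normalization brought that median to 0.01 and the median of the 10 genes to 0.13, with 8 of the 10 positive. It left Nr4a3 at 1.03, Nr4a1 at 0.32, Nfatc1 at 0.26, Irf4 at 0.20, Egr2 at 0.15, Rcan1 at 0.11, Egr3 at 0.04 and Nr4a2 at 0.03. All 10 were lower than without it, and the median shift among the 6736 genes was -0.09, so every size depended on the scaling. Little was left of Egr3 and Nr4a2, at 0.15 and 0.14 without it. At an unadjusted p under 0.05 there were 4 of the 10, Nr4a1, Nr4a3, Egr2 and Irf4, against 6.24% of all genes in that direction. In 4 of the 10 the lower anti-ICOS array exceeded the highest anti-CD3 array, Nr4a3, Egr2, Egr3 and Irf4, against 8.51% of all genes. The shares of 6.24% and 8.51% were not taken for genes as bright as these alone.

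**Figure D1:**
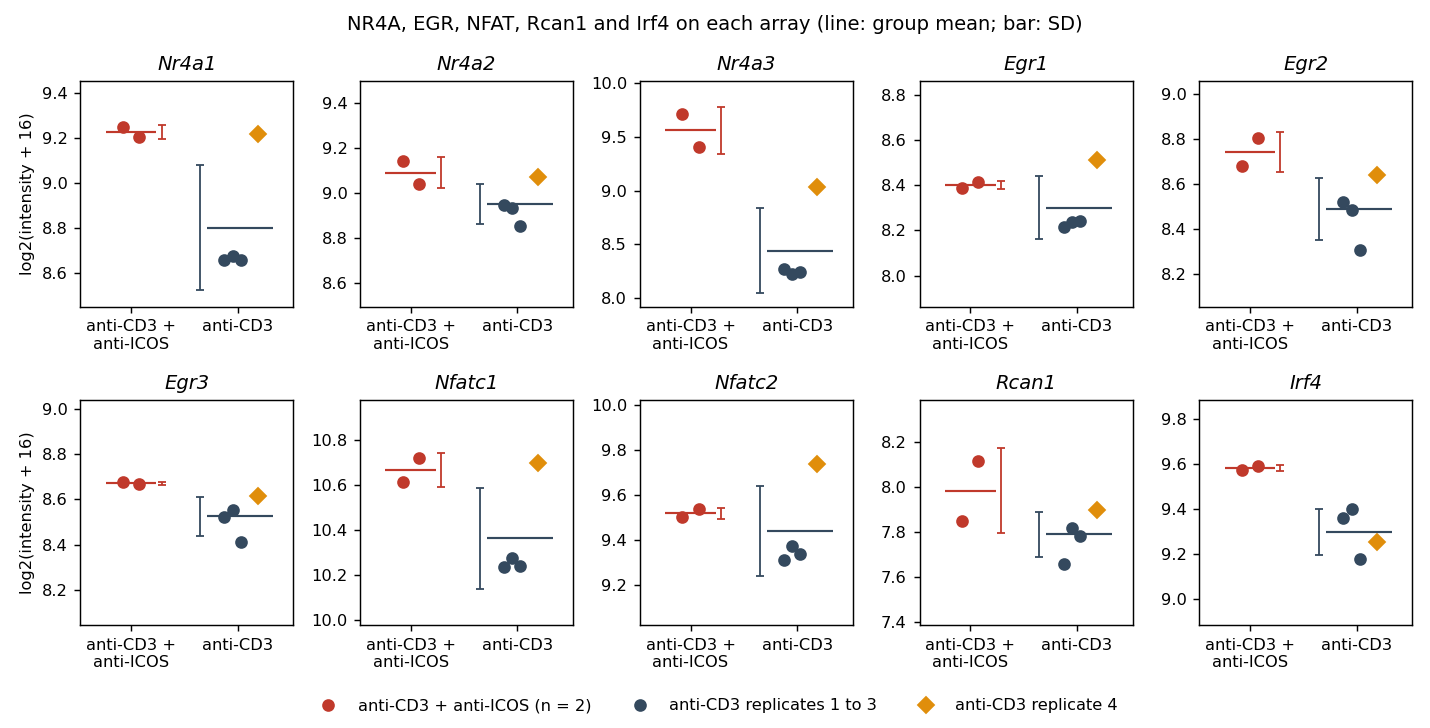
Each panel plots log2(intensity + 16) of 1 gene on the 2 arrays with anti-CD3 plus anti-ICOS (red circles) and the 4 with anti-CD3 (dark circles for replicates 1 to 3, orange diamond for replicate 4), with the group mean as a line and the SD as a bar. Every panel spans 1 log2 unit, except that of Nr4a3, which spans 2.1. Replicate 4 lies at the level of the anti-ICOS arrays for Nr4a1, Nr4a2 and Nfatc1, above them for Egr1 and Nfatc2, and with replicates 1 to 3 for Irf4.

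The NR4A receptors are orphan nuclear receptors that bind DNA without a known ligand being needed, and their levels in T cells follow receptor signalling. Nr4a3 had the largest difference of the 10. It read 9.71 and 9.41 with anti-ICOS, against 8.27, 8.23, 8.24 and 9.03 in anti-CD3 replicates 1 to 4. Both anti-ICOS arrays were above every anti-CD3 array, by at least 0.38, and replicate 4 was the one anti-CD3 array that approached them. In linear units the deposited intensities were 824.0 and 663.5 with anti-ICOS, against 292.9, 283.3, 286.4 and 506.3 with anti-CD3. The difference was 1.12 ± 0.24 (SE), or 2.17-fold on the scale with the offset, and did not pass the test (limma adjusted p = 0.226). Without replicate 4 it was 1.32 ± 0.093 and passed (limma adjusted p = 0.000133), and against replicate 4 alone it was 0.53 ± 0.13 and did not (limma adjusted p = 0.366).

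Nr4a1 encodes NUR77, whose reporter mice are a common readout of T cell receptor signal strength. It read 9.25 and 9.20 with anti-ICOS, against 8.66, 8.68, 8.66 and 9.22 in anti-CD3 replicates 1 to 4. Replicates 1 to 3 lay close together and well below the anti-ICOS arrays, whereas replicate 4 lay between those arrays. The difference was 0.42 ± 0.17 (limma adjusted p = 0.420). It was 0.56 ± 0.061 without replicate 4 (limma adjusted p = 0.000716) and 0.01 ± 0.081 against replicate 4 alone.

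Nr4a2 encodes NURR1, the close relative best known for its role in dopamine neurons. It read 9.14 and 9.04 with anti-ICOS, against 8.95, 8.93, 8.85 and 9.07 with anti-CD3, so that replicate 4 lay between the anti-ICOS arrays here as well. The difference was 0.14 ± 0.084 (limma adjusted p = 0.442), and it did not pass without replicate 4 (0.18 ± 0.068, limma adjusted p = 0.0807) or against replicate 4 alone (0.02 ± 0.091). The differences of the 3 receptors ranged from 0.14 for Nr4a2 to 1.12 for Nr4a3, and were not tested against each other.

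The promoter windows of 7 of the 10 genes were in the RefSeq table for GRCm38.p6, which gives 250 bases before and 50 after each listed transcription start. Windows are shown for Nr4a1, Nr4a3, Irf4, a start of Egr2 and the internal start of Rcan1, with capitals marking every match on either strand to 5 motifs. These were the NR4A response element AAAGGTCA, the NFAT core GGAAA, the EGR site GCGGGGGCG or GCGTGGGCG, the AP-1 site TGANTCA and the CArG box of serum response factor. Of all 32851 windows in the table, 1.51% held the NR4A element, 61.3% the NFAT core, 3.47% the EGR site, 7.81% the AP-1 site and 1.63% the CArG box. The NFAT core is so short that its presence says little. A match describes letters only, and positions count from the listed start. The windows of Nr4a2 and Nfatc2 are not shown. That of Nr4a2 held 1 NFAT core, and the 2 of Nfatc2 held 3 and 1, with no match to the other motifs. The Nr4a1 window on the plus strand (chr15:101266596-101266895) held 1 EGR site at position -60, and the Nr4a3 window on the plus strand (chr4:48045055-48045354) held no match to any of the 5.
Nr4a1: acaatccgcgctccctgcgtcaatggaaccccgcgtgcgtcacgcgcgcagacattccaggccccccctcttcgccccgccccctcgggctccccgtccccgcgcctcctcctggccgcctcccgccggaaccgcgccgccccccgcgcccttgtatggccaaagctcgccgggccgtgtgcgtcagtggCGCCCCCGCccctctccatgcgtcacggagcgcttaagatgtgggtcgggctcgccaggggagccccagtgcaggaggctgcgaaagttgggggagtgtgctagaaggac
Nr4a3: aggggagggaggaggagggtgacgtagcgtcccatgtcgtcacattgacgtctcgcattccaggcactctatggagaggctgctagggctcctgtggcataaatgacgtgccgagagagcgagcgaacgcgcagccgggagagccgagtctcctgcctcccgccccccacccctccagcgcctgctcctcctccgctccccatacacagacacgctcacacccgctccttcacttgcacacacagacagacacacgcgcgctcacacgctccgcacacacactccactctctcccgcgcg

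The EGR factors bind GC-rich sites through zinc fingers and are opposed by the co-repressors NAB1 and NAB2. Egr2, which restrains T cell activation together with Egr3, read 8.68 and 8.81 with anti-ICOS, against 8.52, 8.49, 8.31 and 8.64 in anti-CD3 replicates 1 to 4. The anti-ICOS arrays were above all 4 anti-CD3 arrays, but the lower of them exceeded replicate 4 by 0.04, which is less than the gap of 0.13 between the anti-ICOS arrays themselves. The difference was 0.25 ± 0.10 (limma adjusted p = 0.420), 0.30 ± 0.085 without replicate 4 (limma adjusted p = 0.0315) and 0.10 ± 0.11 against replicate 4 alone.

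Egr3 read 8.68 and 8.67 with anti-ICOS, against 8.52, 8.55, 8.41 and 8.62 with anti-CD3. The anti-ICOS arrays were the highest, by 0.05 over replicate 4, and the difference of 0.15 ± 0.079 did not pass with all 6 arrays (limma adjusted p = 0.429) or without replicate 4 (0.18 ± 0.069, limma adjusted p = 0.0877), and was 0.06 ± 0.093 against replicate 4 alone. Egr1, the earliest of the family to be induced in many cells, read 8.39 and 8.41 with anti-ICOS, against 8.21, 8.24, 8.24 and 8.51 with anti-CD3. Replicate 4 was the highest of the 6 arrays for Egr1, above both anti-ICOS arrays. The difference was 0.10 ± 0.10 with all 6 arrays (limma adjusted p = 0.587), 0.17 ± 0.060 without replicate 4 (limma adjusted p = 0.0670) and -0.11 ± 0.081 against replicate 4 alone. With quantile normalization the Egr1 difference was -0.0009.

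A CArG box was found in 4 of the 5 listed Egr2 windows, against the 1.63% of all windows given above. The windows of listed starts 3, 4 and 5 overlap and hold the same box, so that site is counted more than once. The window shown lies on the plus strand (chr10:67537619-67537918) and holds the CArG box CCATATATGG at position -72 and an NFAT core, read on the other strand, at -8.
Egr2: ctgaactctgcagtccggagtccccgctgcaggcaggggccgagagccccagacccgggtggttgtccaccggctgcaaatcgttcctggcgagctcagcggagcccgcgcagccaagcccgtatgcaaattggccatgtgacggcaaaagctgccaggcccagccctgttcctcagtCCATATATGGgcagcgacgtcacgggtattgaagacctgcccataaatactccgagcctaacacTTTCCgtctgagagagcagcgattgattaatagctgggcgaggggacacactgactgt

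NFAT proteins are controlled mainly by their location in the cell, so a transcript level does not report their activity, with the exception that Nfatc1 is itself induced by NFAT through an autoregulatory promoter. Nfatc1 read 10.61 and 10.72 with anti-ICOS, against 10.24, 10.27, 10.24 and 10.70 in anti-CD3 replicates 1 to 4. Replicate 4 again lay between the anti-ICOS arrays, while replicates 1 to 3 were close together below them. The difference was 0.30 ± 0.14 (limma adjusted p = 0.423), 0.42 ± 0.065 without replicate 4 (limma adjusted p = 0.00343) and -0.03 ± 0.087 against replicate 4 alone.

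Nfatc2, the NFAT gene already present in resting T cells, read 9.50 and 9.54 with anti-ICOS, against 9.31, 9.37, 9.34 and 9.74 with anti-CD3. Replicate 4 lay above both anti-ICOS arrays, by more than those arrays differed from replicates 1 to 3. The difference was 0.08 ± 0.13 with all 6 arrays (limma adjusted p = 0.731), 0.18 ± 0.062 without replicate 4 (limma adjusted p = 0.0624) and -0.22 ± 0.083 against replicate 4 alone, where it did not pass either (limma adjusted p = 0.876). With quantile normalization the Nfatc2 difference was -0.01.

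Rcan1, whose shorter transcript is driven by calcineurin and NFAT from an internal promoter, read 7.85 and 8.11 with anti-ICOS, against 7.66, 7.81, 7.78 and 7.90 with anti-CD3. The anti-ICOS arrays differed from each other by 0.27, more than the difference between the groups of 0.19 ± 0.10 (limma adjusted p = 0.429), and replicate 4 lay between them. Rcan1 did not pass without replicate 4 (0.23 ± 0.094, limma adjusted p = 0.0992) or against it alone (0.08 ± 0.13). The RefSeq table lists 2 starts for Rcan1, and which of their transcripts the probe set reads was not examined here. The window of the upstream start held none of the 5 motifs, whereas that of the internal start, on the minus strand (chr16:92400029-92400328), held 3 NFAT cores at -227, -193 and -163 and 1 AP-1 site at -110.
Rcan1, internal start: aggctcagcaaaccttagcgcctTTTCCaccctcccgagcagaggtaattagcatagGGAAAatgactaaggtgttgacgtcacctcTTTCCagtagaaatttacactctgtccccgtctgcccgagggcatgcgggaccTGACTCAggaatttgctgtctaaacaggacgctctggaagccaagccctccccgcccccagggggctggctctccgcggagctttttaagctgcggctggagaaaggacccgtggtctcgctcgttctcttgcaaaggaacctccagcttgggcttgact

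Irf4 separated the groups in another way. It read 9.57 and 9.59 with anti-ICOS, against 9.36, 9.40, 9.18 and 9.25 in anti-CD3 replicates 1 to 4. Here replicate 4 lay within the range of replicates 1 to 3, and both anti-ICOS arrays were above all of them by at least 0.17. The difference was 0.29 ± 0.085 with all 6 arrays (limma adjusted p = 0.414), 0.27 ± 0.081 without replicate 4 (limma adjusted p = 0.0396) and 0.33 ± 0.11 against replicate 4 alone (limma adjusted p = 0.716). Its size lay between 0.27 and 0.33 in these 3 fits, of which only the one without replicate 4 called it. The Irf4 window on the plus strand (chr13:30748983-30749282) held 1 match, an NFAT core read on the other strand at the first transcribed base.
Irf4: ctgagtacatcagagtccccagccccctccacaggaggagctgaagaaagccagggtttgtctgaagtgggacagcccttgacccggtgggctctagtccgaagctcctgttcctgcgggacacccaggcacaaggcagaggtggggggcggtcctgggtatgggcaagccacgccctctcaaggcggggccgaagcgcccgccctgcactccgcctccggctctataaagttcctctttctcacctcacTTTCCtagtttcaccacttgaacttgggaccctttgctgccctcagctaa

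Without anti-CD3 replicate 4, 5 of the 10 genes were higher with anti-ICOS at the threshold, Nr4a1, Nr4a3, Egr2, Nfatc1 and Irf4, where 17.1% of all genes were called higher. All 10 had both anti-ICOS arrays above anti-CD3 replicates 1 to 3, against 28.5% of all genes, and their median difference was 0.25, against -0.04 over all genes. The shares of 17.1% and 28.5% and this median of -0.04 were not taken for genes as bright as these alone. With replicate 4 as the only reference 0 of the 10 passed in limma, where 0.176% of all genes were called higher, and the median difference was 0.04. At an unadjusted p under 0.05 that fit held 3 of the 10, Nr4a3 and Irf4 higher and Nfatc2 lower, against 5.1% of all genes in either direction. In that comparison 3 of the 10 were lower with anti-ICOS, Egr1, Nfatc1 and Nfatc2, none past the test. These fits share their anti-ICOS arrays and, in part, their anti-CD3 arrays.

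**Figure D2:**
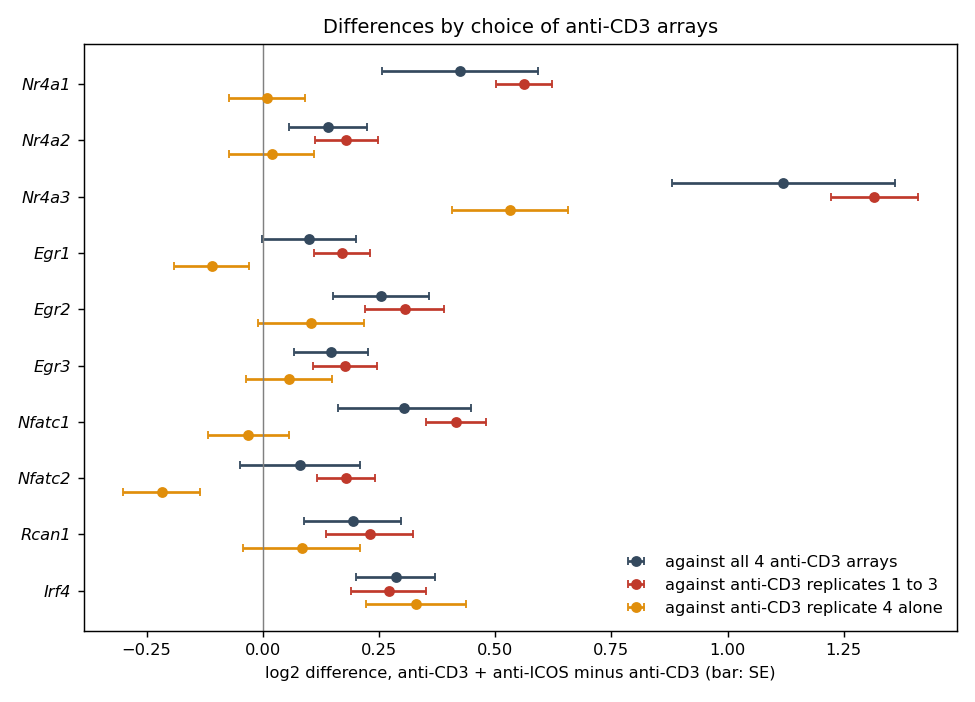
The log2 difference of each gene, with anti-ICOS minus without it, is plotted with its SE from limma against all 4 anti-CD3 arrays (dark), against replicates 1 to 3 (red) and against replicate 4 alone (orange). Nr4a3 stays right of zero in all 3, at 1.12, 1.32 and 0.53, Irf4 hardly moves, and Egr1, Nfatc1 and Nfatc2 cross zero against replicate 4.

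The position of replicate 4 between anti-CD3 replicates 1 to 3 and the anti-ICOS arrays varied among the 10 genes. Taking the mean of the anti-ICOS arrays as 100% and the mean of replicates 1 to 3 as 0%, replicate 4 stood at -21.5% for Irf4. It stood at 59.5% for Nr4a3, 63.5% for Rcan1, 66.1% for Egr2 and 67.9% for Egr3, and at 89.3% for Nr4a2, 98.5% for Nr4a1 and 108% for Nfatc1. For Egr1 and Nfatc2 it stood at 165% and 222%, beyond the anti-ICOS arrays. Replicate 4 was above replicates 1 to 3 in 9 of the 10 genes, all but Irf4, against 34.5% of all genes, with a median gap of 0.24, against -0.04 over all genes. The share of 34.5% was not taken for genes as bright as these alone. These percentages have no test, since replicate 4 is a single array.

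**Figure D3:**
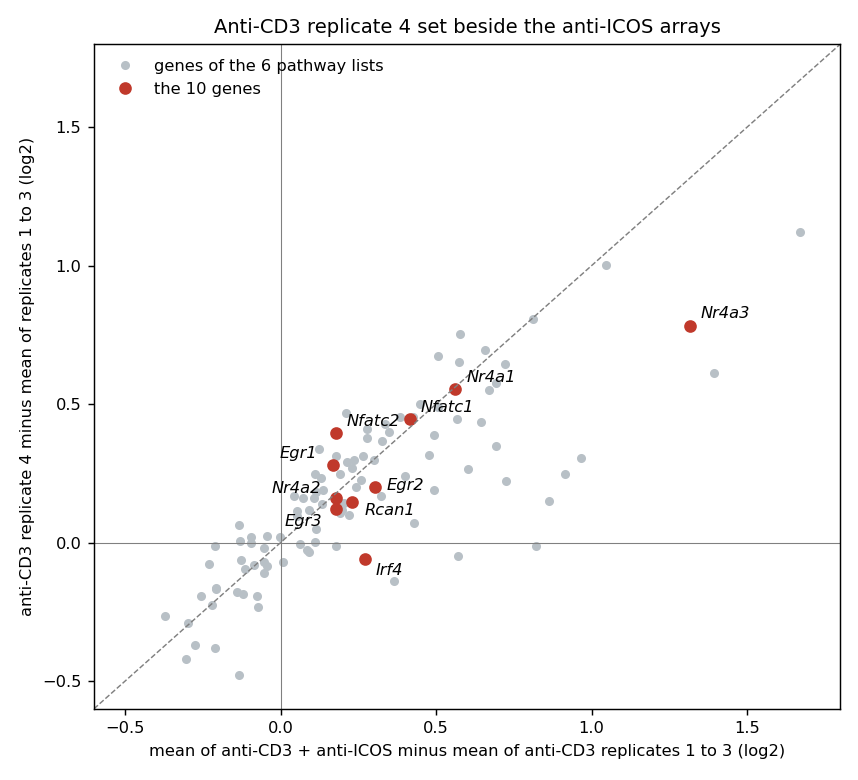
The horizontal axis is the mean of the anti-ICOS arrays and the vertical axis anti-CD3 replicate 4, each minus the average of the first 3 anti-CD3 replicates (log2), for the 10 genes (red) and the genes of 6 pathway lists (grey), with the line of equality dashed. Nr4a1 and Nfatc1 lie close to the line, Egr1 and Nfatc2 above it, Nr4a3 at 1.32 and 0.78 below it, and Irf4 at 0.27 and -0.06 under zero on the vertical axis.

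Calls among other genes of the calcineurin and NFAT pathway also came with replicate 4 left out. Of 25 measured, 0 passed limma's test with all 6 arrays, 7 were called higher and 1 lower without replicate 4, and 0 were called against replicate 4 alone, with medians of 0.03, 0.05 and -0.04. Over all genes 17.1% were called higher and 12.7% lower without replicate 4. At an unadjusted p under 0.05 in limma, in either direction, there were 2 of the 25 with all 6 arrays, against 11.8% of all genes, and 0 against replicate 4 alone, against 5.1% of all genes. In the next 5 lists the counts in brackets are of that kind, with the same shares over all genes. Nfat5, the NFAT relative that responds to osmotic stress, read 10.32 and 10.22 with anti-ICOS, against 9.45, 9.48, 9.45 and 10.27 with anti-CD3, a difference of 0.61 ± 0.24 (limma adjusted p = 0.417), which was 0.81 without replicate 4 (limma adjusted p = 0.000187) and 0.01 against it alone. Replicate 4 lay between the anti-ICOS arrays for Nfat5, and replicates 1 to 3 well below them. Orai1, the pore of the calcium channel that feeds calcineurin, read 9.03 and 8.98 with anti-ICOS, against 8.45, 8.58, 8.56 and 8.84 with anti-CD3, a difference of 0.40 ± 0.11 (limma adjusted p = 0.414). Both anti-ICOS arrays were above all anti-CD3 arrays for Orai1, and its difference was 0.48 without replicate 4 (limma adjusted p = 0.00251) and 0.16 against it alone. Stim2, the sensor of calcium stores that opens such channels, differed by -0.21 ± 0.093 (limma adjusted p = 0.423), and by -0.21 and -0.20 in the other two fits, with no call.

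Among 14 partners, co-repressors and targets of the EGR factors, 0 passed with all 6 arrays (2 unadjusted), 3 were called higher and 3 lower without replicate 4, against 17.1% and 12.7% of all genes, and 0 against replicate 4 alone (1 unadjusted). Tnfrsf9, the costimulatory receptor 4-1BB and a target of EGR2, read 10.24 and 10.43 with anti-ICOS, against 9.67, 9.73, 9.68 and 10.13 with anti-CD3, a difference of 0.54 ± 0.15 (limma adjusted p = 0.388), which was 0.65 without replicate 4 (limma adjusted p = 0.000972) and 0.21 against it alone. The ubiquitin ligase genes Itch and Cblb, both linked to T cell anergy, differed in opposite directions, by 0.38 ± 0.15 and -0.23 ± 0.11 (limma adjusted p = 0.420 and 0.423). Without replicate 4 they differed by 0.51 and -0.30 (limma adjusted p = 0.00118 and 0.0129), and against it alone by 0.02 and -0.01.

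Of 14 genes that partner NR4A receptors or mark chronic receptor stimulation, 0 passed with all 6 arrays (6 unadjusted), 7 were called higher and 2 lower without replicate 4, against 17.1% and 12.7% of all genes, and 0 against replicate 4 alone (1 unadjusted), with a median of 0.19 over all 6 arrays. Pdcd1, the gene of the inhibitory receptor PD-1 and a target of NFAT, read 9.43 and 9.39 with anti-ICOS, against 8.79, 8.83, 8.81 and 9.08 with anti-CD3, a difference of 0.54 ± 0.098 (limma adjusted p = 0.144). Like Nr4a3 it had replicate 4 between the others, with a difference of 0.60 without that array (limma adjusted p = 0.00055) and 0.34 against it alone (limma adjusted p = 0.397). The inhibitory receptor gene Tigit differed by 0.34 ± 0.11 and Rxra, the nuclear receptor that pairs with NUR77 and NURR1, by 0.28 ± 0.086 (limma adjusted p = 0.414 for both). Without replicate 4 these were 0.40 and 0.32 (limma adjusted p = 0.0129 and 0.012), and against it alone 0.16 and 0.15.

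IRF4 partners and related factors numbered 17, of which 0 passed with all 6 arrays (6 unadjusted), 8 were called higher and 2 lower without replicate 4, against 17.1% and 12.7% of all genes, and 0 against replicate 4 alone (3 unadjusted), with a median of 0.20 over all 6 arrays. Prdm1, the gene of BLIMP-1, read 8.49 and 8.20 with anti-ICOS, against 7.42, 7.42, 7.31 and 7.69 with anti-CD3, a difference of 0.89 ± 0.13 that did not pass (limma adjusted p = 0.0671). It passed with an offset of 1 (0.95, limma adjusted p = 0.0486), without replicate 4 (0.97, limma adjusted p = 0.000464), with array weights (0.93, limma adjusted p = 0.000185) and with the replicate block (0.93, limma adjusted p = 0.00294), but not against replicate 4 alone (0.66, limma adjusted p = 0.183). The fits of Prdm1 without replicate 4, with array weights and with the block all give that array little or no weight. Both anti-ICOS arrays were above replicate 4 in Prdm1, as they were in Jun, an AP-1 subunit, which differed by 0.85 ± 0.14 (limma adjusted p = 0.109). Spi1, the gene of PU.1, which pairs with IRF4 in B cells and is a myeloid factor, differed by 0.67 ± 0.13 (limma adjusted p = 0.157). Its relation to the monocyte and macrophage markers given above was not tested. Without replicate 4, Jun and Spi1 differed by 0.91 and 0.72 (limma adjusted p = 0.00196 and 0.00291), and against it alone by 0.67 and 0.50 (limma adjusted p = 0.428 and 0.579).

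Of 20 other immediate early and activation genes, Nfil3 alone passed with all 6 arrays (7 unadjusted), 10 were called higher and 0 lower without replicate 4, against 17.1% and 12.7% of all genes, and 0 against replicate 4 alone (7 unadjusted), with a median of 0.19 over all 6 arrays. Nfil3, a basic leucine zipper factor, read 8.60 and 8.26 with anti-ICOS, against 7.68, 7.61, 7.55 and 7.60 with anti-CD3, and rose by 0.82 ± 0.11 (limma adjusted p = 0.0450). Its call ended when any 1 array other than anti-CD3 replicate 4 was left out (limma adjusted p = 0.194, 0.214 and 0.163 without anti-CD3 replicates 1, 2 and 3, and 0.215 and 0.0562 without anti-ICOS replicates 1 and 2) and against replicate 4 alone (limma adjusted p = 0.114). It also ended with an offset of 64 (limma adjusted p = 0.0917), quantile normalization (limma adjusted p = 0.0616), median centring (0.0583) and every probe set tested (0.0504). Like Irf4, Nfil3 had replicate 4 within the range of replicates 1 to 3, and its difference was 0.82 without that array (limma adjusted p = 0.00141) and 0.83 against it alone. The stress-induced gene Ier3 differed by 0.58 ± 0.11 (limma adjusted p = 0.155), by 0.57 without replicate 4 (limma adjusted p = 0.00748) and by 0.62 against it alone (limma adjusted p = 0.358).

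Among 13 cytokine and receptor genes that NFAT binds, 0 passed with all 6 arrays (4 unadjusted), 6 were called higher and 0 lower without replicate 4, against 17.1% and 12.7% of all genes, and 0 against replicate 4 alone (2 unadjusted), with a median of 0.25 over all 6 arrays. Ifng read 8.76 and 8.37 with anti-ICOS, against 6.84, 7.05, 6.81 and 8.02 with anti-CD3, a difference of 1.39 ± 0.34 (limma adjusted p = 0.327). Il10 differed by 1.24 ± 0.20 and Tnf by 0.45 ± 0.15 (limma adjusted p = 0.0958 and 0.414). Without replicate 4 Ifng was higher by 1.67, Il10 by 1.39 and Tnf by 0.57 (limma adjusted p = 0.000163, 0.000125 and 0.00272). Set against that array only, they differed by 0.55, 0.78 and 0.12 without a call (limma adjusted p = 0.622, 0.114 and 1.0). Ifng, Il10, Tnf and Nr4a3 shared the order of arrays, with replicate 4 above replicates 1 to 3 and below both anti-ICOS arrays. Egr2, Egr3, Orai1, Tnfrsf9, Itch, Pdcd1, Tigit, Rxra, Prdm1, Jun and Spi1 had it too, so it is not particular to these genes. Its share over all genes was not counted.

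**Figure D4:**
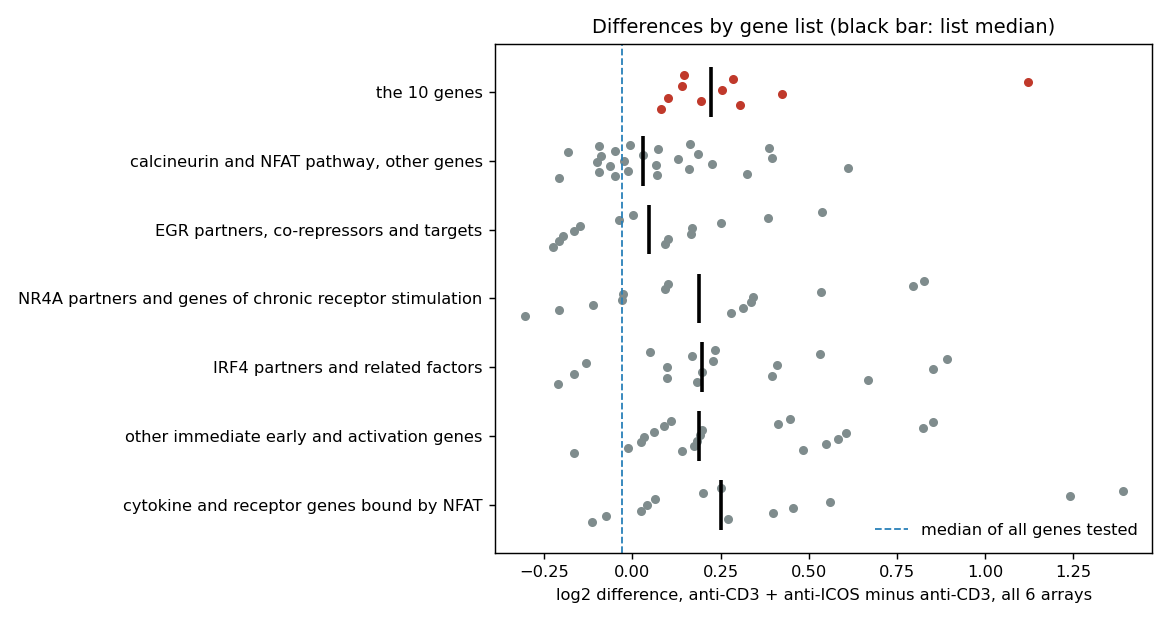
Each point is the log2 difference of 1 gene, with anti-ICOS minus without it over all 6 arrays, for the 10 genes (red) and the 6 pathway lists (grey, some genes on 2 lists), with list medians as black bars and the median of all 19937 genes dashed. The 10 genes have a median of 0.22, the calcineurin and NFAT pathway 0.03 and the cytokine genes 0.25.

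For the 4 genes of the 10 with the widest range over the arrays, the genes of most similar pattern were sought among 10787 genes with a mean of at least 7, by the root mean square difference of log2 values centred on their own mean over the 6 arrays. Nearest to Nr4a3 was Maf, a transcription factor of IL-10 producing T cells, at 0.05, with 9.32 and 9.10 with anti-ICOS, against 7.93, 7.90, 7.88 and 8.78 with anti-CD3. Cish, a SOCS family gene induced by STAT5, followed at 0.09. Nearest to Nr4a1 were the liprin gene Ppfia1 and the mannosyltransferase gene Alg2, both at 0.02, and nearest to Nfatc1 were the chemokine receptor gene Cxcr3 and Mideas, also at 0.02. Nearest to Egr2 were Get3, which encodes an ATPase for inserting membrane proteins, and Rassf3, both at 0.03. The 8 genes had limma adjusted p-values between 0.0884 and 0.423.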

How the data were processed

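RNA of the 6 samples, 1 ug each, was labelled with biotin and hybridised to Affymetrix Mouse Gene ST arrays, per the labels' protocols and design text. The authors deposited 1 linear intensity for each probe set and array, and array medians lay between 109 and 114. The submitters' processing notes name MAS5 with no role, and the normalization is not given in any source used here. If arrays were scaled to each other, a shift of most genes would not be seen.

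Among 34760 probe sets, those with 1 gene symbol (21640) were used, and the brightest per gene gave 19937 genes, with no filter on expression. The offset of 16 makes fold changes of dim genes smaller. All 6 arrays were fitted by group, as titled, without covariate in limma 3.58.1 (R 4.3.3, lmFit and eBayes, two-sided), with Benjamini-Hochberg adjustment over all 19937 genes and a threshold of 0.05. The fit was tested on simulated data in which all arrays varied independently. No simulated array stood apart as replicate 4 does, so that test says nothing about the effect of this array.

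The 10 genes and all lists were chosen with earlier results of these data known. From the pathway lists 99 different genes were measured. The text names every listed gene past the threshold, the 3 of smallest p per pathway list, and the 2 nearest in pattern to each of the 4 genes of widest range. Single marker genes were named after their values were seen. Alternatives were other offsets, normalizations, filters, priors, weights, probe set rules and sets of arrays, and a replicate block. Plots were drawn with matplotlib 3.10.9.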

Additional observations from a re-analysis of the deposited data

Results flagged for a closer look

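In the 4 anti-CD3 arrays, replicate 4 lay apart from the other 3 by Dixon's criterion, the gap to the nearest array over the whole range. This held for 5 of the 10 genes, always on the high side, with ratios of 0.962 for Nr4a1, 0.944 for Nr4a3, 0.904 for Egr1, 0.922 for Nfatc1 and 0.851 for Nfatc2. Among the 25 other genes named by rule it held for 10: Nfat5 (0.962), Tnfrsf9 (0.874), Itch (0.867), Pdcd1 (0.851), Maf (0.947), Cish (0.847), Ppfia1 (0.913), Alg2 (0.932), Cxcr3 (0.932) and Mideas (0.869). The last 6 were picked for a pattern like that of Nr4a3, Nr4a1 or Nfatc1, so they are no separate observation. Chance marks about 1 in 20 groups of arrays, and over all genes 8.69% were marked for any array. Replicate 4 was the array apart in 1197 genes, or 6.0% of all genes. The groups for Nr4a2, Egr2, Egr3, Rcan1 and Irf4 were not marked.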

How the results depend on the processing

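None of the 10 genes was called with all 6 arrays, nor with offsets of 1 or 64, quantile normalization, median centring, the filter on dim genes, a trended and robust prior, the mean of probe sets, every probe set, a threshold of 0.1 or replicate 4 as the only reference. Array quality weights, which were 0.15 for anti-CD3 replicate 4 and 4.53 for replicate 1, called all 10, where 22.8% of all genes were called higher. With 1 array left out the count lay between 0 and 5, and it was 0 in each case but that of anti-CD3 replicate 4. Same-numbered arrays deviated from their group means with correlations of -0.039 and 0.101 across genes, so the numbers were not taken to pair samples. With replicate number as a block, which leaves anti-CD3 replicates 3 and 4 without a partner, 6 of the 10 were called (Nr4a1, Nr4a3, Egr2, Nfatc1, Rcan1 and Irf4), where 17.0% of all genes were called higher. The shares of 22.8% and 17.0% were not taken for genes as bright as the 10 alone. Over all genes the count was 54. It was 28 with an offset of 64, 85 at a threshold of 0.1, 35 with replicate 4 as the only reference, 9413 with array weights, 6551 with the replicate block, and 16 to 5930 with 1 array left out. The sign turned for Egr1 (-0.0009 with quantile normalization, -0.11 against replicate 4 alone), Nfatc2 (-0.0109 and -0.22) and Nfatc1 (-0.0313 against replicate 4 alone), and the cause was not tested. Of 170 comparisons of the 10 genes with an alternative, 144 kept direction and side of the threshold and 21 gained a call. The gained calls came from array weights (10), the replicate block (6) and leaving out replicate 4 (5). Each of these gives replicate 4 little or no weight in the difference, so they are not separate observations. The limit on precision is the number of arrays.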
